A study of Mus musculus with 4 samples.

Results

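The genes examined here are 9 regulators and receptors linked to neuroblastoma or sympathetic neurons. They are the receptor tyrosine kinases Alk and Ret, the homeodomain factors Phox2a and Isl1, and the basic helix-loop-helix factors Hand2 and Mycn. The zinc finger factors Gata2 and Gata3 and the HMG box factor Sox11 complete the set. Their members on the array were the probe sets whose annotation gives 1 gene symbol that is one of these names, which took 21 of 45037 probe sets and 9 of 18193 genes with a symbol. Cytoplasmic RNA of Neuro2A cells, a mouse neuroblastoma line, was hybridised to 4 Affymetrix expression arrays. In 2 of them the cells had been depleted of 4.5SH, a short RNA of rodents that codes for no protein and resembles the B1 repeats of the mouse genome, and the other 2 came from control cells, with 2 biological replicates in each group as the labels name them. The labels' protocol describes antisense oligonucleotides at 30 nM, transfected with a lipid reagent. It does not state what the control cells received or whether replicates came from separate transfections. A p-value here therefore reflects only the spread among these 4 arrays, pooled over probe sets, and that spread may be technical. What the loss of 4.5SH did and what the oligonucleotides did otherwise cannot be told apart. The submitters state that they sought the antisense B1 genes that 4.5SH targets.

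Sympathetic neurons arise from the neural crest under a network of transcription factors that maintain each other's expression. The homeodomain factor Phox2a, Hand2, Gata2, Gata3 and Isl1 are at its centre, and they drive the enzymes of noradrenaline synthesis. Neuroblastoma cells keep much of this network. Mycn is the oncogene amplified in aggressive human tumours, Alk is the receptor mutated in familial human disease, Ret is the receptor for ligands of the GDNF family, and Sox11 is a factor of immature neurons.

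Signals are MAS5 values, 1 per probe set on a linear scale. Changes are given as log2 fold changes of the signal plus 16, knockdown minus control, with the standard error of a limma fit on 2 against 2 arrays, and a change passed at an adjusted p under 0.05 over all tested probe sets. The added 16 makes the log2 value of a dim probe set smaller than its plain ratio. Probe sets entered the test when their mean over the 4 arrays was at least 16.9, the median of all. The smallest p of an exact permutation of 2 and 2 arrays is 1 in 3, so each call depends on limma pooling the variance over probe sets.

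Trimmed means of the signal (2% off each end) were 128 and 132 for the knockdown arrays, against 149 and 144 for the control arrays. Pearson correlations of log2 signal over all probe sets were 0.988 for the knockdown pair, 0.987 for the control pair and 0.978 to 0.979 for pairs of unlike groups. Of 22525 tested probe sets, 35.6% passed, 9.76% higher and 25.8% lower in the knockdown, so that 27.5% of the calls were higher. That share was 50.4% with quantile scaling, 48.6% when arrays were centred on the tested probe sets, 30.3% after centring on all probe sets and 11.5% with spike-in scaling. The median log2 fold change of the tested probe sets was -0.11 as deposited. It was -0.00073 with quantile scaling, 0.02 and -0.09 with the 2 ways of centring (tested, then all probe sets), and -0.25 with spike-in scaling. Of 7 neuronal and sympathoadrenal markers with a probe set, 6 passed the filter, Stmn2, a microtubule regulator of neurons, being the brightest at 3571 and 3604 in the knockdown against 4038 and 4030 in the control. Of the 6, 1 fell (Stmn2, -0.17) and 1 rose, Chgb, with 1121 and 1193 in the knockdown against 938 and 901 in the control (0.33 ± 0.07). The others did not pass. The summed signal of this list was 5968 and 6105 in the knockdown against 6384 and 6271 in the control. Th, the rate-limiting enzyme of catecholamine synthesis, did not pass the filter, with 5.9 and 20.6 in the knockdown, against 14.3 and 24 in the control. Of 5 glial, 7 fibroblast, 6 leukocyte and 4 endothelial markers with a probe set, 3, 2, 4 and 2 were tested and none was at 0 on every array. The summed signal of the leukocyte markers was 449 and 428 in the knockdown against 755 and 857 in the control, of which the lysosomal protein Cd68 made up 75.3% and 79.9% in the knockdown against 82% and 84.1% in the control. The sums of the other lists in the same order were 155 and 170 against 167 and 139 for glia, 121 and 131 against 99.2 and 134 for fibroblasts, and 119 and 134 against 199 and 167 for endothelium. Their part in the results was not tested.

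Of the 21 probe sets of the 9 genes, 17 passed the filter and represented 8 genes, with both group means above the filter in each. Of these 17, 5 fell, 3 rose and 9 did not pass, which is 47.1% called against the 35.6% of all tested probe sets. The 5 that fell belonged to Alk, Ret, Phox2a and Gata2, and the 3 that rose all belonged to Sox11. Hand2, Mycn and Isl1 had no probe set that passed, and Gata3 was below the filter. Without overlap between the arrays of the groups, 7 tested probe sets lay below the control and 5 above it, where 44.3% and 22.6% of all tested probe sets did, 66.9% in all. The median log2 fold change of the 17 was -0.13, beside -0.11 for all tested probe sets. In bulk RNA of a fraction, fewer expressing cells, less RNA per cell and less RNA in the cytoplasm cannot be told apart for any of these genes.

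**Figure D1:**
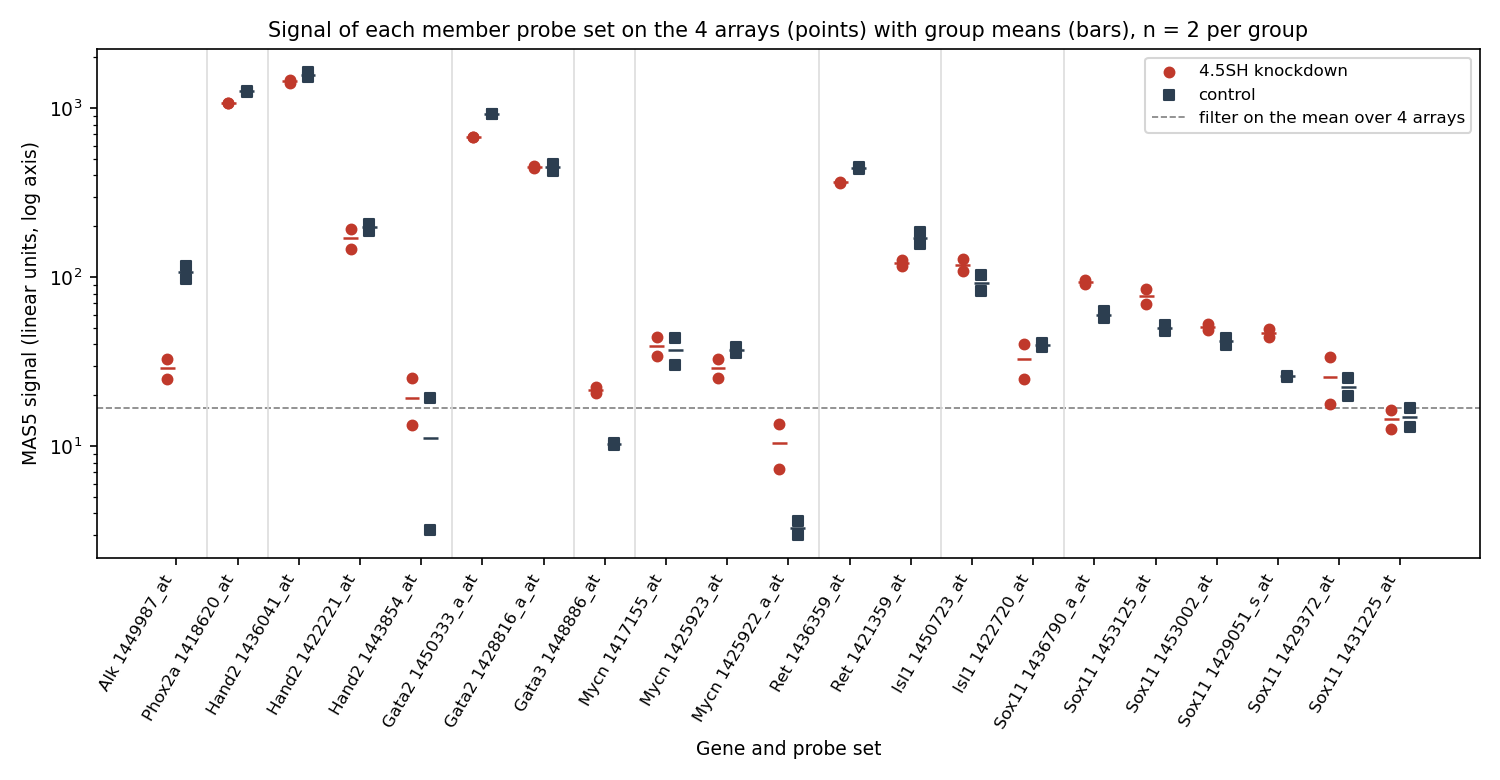
MAS5 signal (log axis) of the 21 probe sets of the 9 genes on each array, knockdown arrays as circles left of control arrays as squares, with bars at the group means (n = 2) and a dashed line at the filter of 16.9. Alk is the only gene whose knockdown arrays (32.8 and 25) lie several-fold below its control arrays (117 and 98.1), and 4 of the 6 Sox11 probe sets lie wholly above their control.

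Alk and Ret were both lower in the knockdown as deposited, but only the Alk call held on every other scale. Alk, the anaplastic lymphoma kinase, lies on chromosome 17 at 71868988-72604702 (minus strand in the promoter table, GRCm38.p6, RefSeq) and has 1 probe set, 1449987_at. It read 32.8 and 25 in the knockdown arrays and 117 and 98.1 in the control arrays. Both knockdown values lie below both control values, and the group means, 28.9 ± 5.51 for the knockdown and 108 ± 13.6 for the control (SD, n = 2), differ by a factor of 3.73. The log2 fold change was -1.46 ± 0.18 (adjusted p = 2.70e-05, limma), and 72 of the 22525 tested probe sets fell by more. Alk passed under each of the 15 alternatives that measured it, with log2 values between -1.87 and -0.89, the smallest with a pseudocount of 64.

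The sequence before the start that the promoter table gives Alk, which lies inside the bounds of the locus above, is shown because this gene has the largest change among the 9. The 250 bases are chr17:72604308-72604557 on the minus strand, GRCm38.p6, from RefSeq, written 5′ to 3′ with capitals for matches, on either strand, to a bHLH E-box (CANNTG), a GATA site (AGATAA or TGATAA), a homeodomain core (TAATTA) or a Sox site (ACAAAG or ACAATG). The window holds none of these letters.
Alk: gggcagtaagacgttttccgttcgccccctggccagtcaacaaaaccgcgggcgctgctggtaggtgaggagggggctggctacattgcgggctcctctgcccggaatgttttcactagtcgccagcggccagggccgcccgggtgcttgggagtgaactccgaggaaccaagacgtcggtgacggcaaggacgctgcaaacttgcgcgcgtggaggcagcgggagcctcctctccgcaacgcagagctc
Of 32851 windows of the same length in the promoter table, 66.2% hold the E-box, 16.6% a GATA site, 4.84% the homeodomain core and 25.2% a Sox site. Among the 9 windows of the 8 genes found in the table, those of Phox2a and Gata3 and both windows of Gata2 also hold none, while Hand2 holds 2 E-boxes, 2 GATA sites and 1 homeodomain core, Isl1 an E-box and a GATA site, and Mycn an E-box. The arrays measure no binding, and a match is only a match of letters.

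Ret, the signalling receptor for GDNF family ligands bound to their co-receptors, lies on chromosome 6 at 118151748-118197744. Probe set 1436359_at read 367 and 363 in the knockdown, against 447 and 436 in the control. Probe set 1421359_at read 117 and 126 in the knockdown, against 184 and 158 in the control. Both probe sets were lower without overlap, by -0.27 ± 0.09 (adjusted p = 0.0302, limma) and -0.44 ± 0.13 (adjusted p = 0.0155, limma). Relative to the median of all tested probe sets these changes were -0.15 and -0.33, and 33.7% and 19.1% of tested probe sets fell by more.

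The Ret calls depended on the scale. With quantile scaling the changes were -0.09 and -0.30 (adjusted p = 0.398 and 0.0653, limma). With arrays centred on the tested probe sets they were -0.13 and -0.31 (0.203 and 0.0569), so neither passed. Leaving out any 1 array ended the call at 1436359_at (adjusted p from 0.0732 without control replicate 2 to 0.122 without control replicate 1, limma). At 1421359_at it ended without knockdown replicate 1 (0.0971) and without control replicate 1 (0.122). The log2 value stayed negative in each of these settings.

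Phox2a, a homeodomain factor of noradrenergic neurons, lies on chromosome 7 at 101818313-101822726. Its probe set 1418620_at read 1069 and 1070 in the knockdown, against 1248 and 1268 in the control. The arrays do not overlap and the spread within each group is small, with means of 1069 ± 1.13 for the knockdown and 1258 ± 14.2 for the control (SD, n = 2). The change of -0.23 ± 0.07 (adjusted p = 0.0132, limma) was -0.12 relative to the median of all tested probe sets, and 37.3% of them fell by more. With quantile scaling it was -0.07 (adjusted p = 0.409, limma), and with arrays centred on the tested probe sets -0.10 (0.228). It also did not pass without knockdown replicate 1 (0.0620), without knockdown replicate 2 (0.0606) or without control replicate 2 (0.0574).

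Isl1, a LIM homeodomain factor of sympathetic and motor neurons, lies on chromosome 13 at 116298270-116309688. The brighter probe set 1450723_at read 129 and 109 in the knockdown, against 82.7 and 102.5 in the control, with every knockdown value above every control value. The dimmer one, 1422720_at, annotated to the same accession, read 25.1 and 40.2 in the knockdown, against 40.7 and 38.4 in the control, and the groups overlap. The changes of 0.31 ± 0.15 and -0.21 ± 0.21 had opposite signs, and neither passed (adjusted p = 0.119 and 0.483, limma). The first passed under 1 of 15 alternatives, centring on the tested probe sets (0.44, adjusted p = 0.0422, limma).

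Hand2, the basic helix-loop-helix factor needed for sympathetic neurons to acquire their noradrenergic traits, lies on chromosome 8 at 57320983-57324517. At its brightest probe set, 1436041_at, it read 1419 and 1474 in the knockdown, against 1532 and 1631 in the control. The change of -0.13 ± 0.06 did not pass (adjusted p = 0.143, limma) and its 95% interval ran from -0.26 to 0.01. Relative to the median of all tested probe sets it was -0.01. It passed with spike-in scaling (-0.27, adjusted p = 0.0315, limma), and its sign turned with quantile scaling (0.04) and with arrays centred on the tested probe sets (0.0043). A second probe set, 1422221_at, read 147 and 192 in the knockdown, against 188 and 207 in the control, with an overlap and a change of -0.21 ± 0.13 that did not pass (adjusted p = 0.240, limma). The third, 1443854_at, was below the filter, with 13.3 and 25.4 in the knockdown, against 3.2 and 19.3 in the control.

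Gata2 and Gata3 are zinc finger factors that act in sympathetic neurons and regulate noradrenergic enzymes. The 2 probe sets of Gata2, on chromosome 6 at 88193891-88207032, differed from each other. At 1450333_a_at the signal was 673 and 679 in the knockdown, against 929 and 930 in the control. At 1428816_a_at it was 440 and 457 in the knockdown, against 466 and 427 in the control. The first fell by 0.45 on the log2 scale, with a standard error of 0.07 and adjusted p = 0.000283 (limma), and did so under all 16 alternatives, with values from -0.59 to -0.27. The second was at 0.01 ± 0.09 (adjusted p = 0.963, limma), with a 95% interval from -0.18 to 0.20 and with overlapping groups.

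Within an array, the ratio of the first Gata2 signal to the second does not depend on a scaling factor of that array. It was 1.53 and 1.49 in the knockdown, against 1.99 and 2.18 in the control, lower in both knockdown arrays. The difference in log2 fold change between the probe sets was -0.46 (two-sided exact permutation test at its smallest possible p, 1 in 3). Reaching that p is not particular to Gata2, since 10 of the 15 pairs of tested probe sets within 6 genes did so. Of these pairs, 2 differed by more, one each of Isl1 (0.52) and Sox11 (0.49). Each of those 2 includes a dim probe set, with a mean signal of 36.1 for Isl1 and 24.2 for Sox11. The promoter table gives Gata2 a pair of starts, with windows at chr6:88193641-88193890 and chr6:88198414-88198663 on the plus strand. The files do not say which transcript each probe set reads.

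Gata3, on chromosome 2 at 9857078-9887953, had 1 probe set, 1448886_at, whose mean lay below the filter. It read 22.5 and 20.7 in the knockdown, against 10.5 and 10.1 in the control, so that the knockdown values were higher, by a ratio of 2.1 between the means. In the fit without the filter its log2 change was 0.52 ± 0.23 and did not pass (adjusted p = 0.240, limma).

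Mycn, the MYC family oncogene of neuroblastoma, lies on chromosome 12 at 12936093-12941836 and was dim at all 3 probe sets. Probe set 1417155_at read 44.2 and 34.1 in the knockdown, against 30.1 and 43.7 in the control. Probe set 1425923_at read 32.6 and 25.4 in the knockdown, against 35.8 and 38.5 in the control. The groups overlap at the first and not at the second, and the changes of 0.07 ± 0.21 and -0.24 ± 0.20 did not pass (adjusted p = 0.836 and 0.387, limma). Their 95% intervals, -0.38 to 0.52 and -0.68 to 0.20, span changes of either sign. The third probe set, 1425922_a_at, was below the filter, with 13.6 and 7.3 in the knockdown, against 3.6 and 3 in the control.

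Sox11, the SoxC factor of immature neurons, was the only one of the 9 genes with probe sets that rose. It lies on chromosome 12 at 27334268-27342718 and has 6 probe sets, of which 5 were tested, 3 rose and 2 did not pass. Its brightest probe set, 1436790_a_at, read 96.9 and 90.8 in the knockdown, against 57 and 63.1 in the control. Probe set 1453125_at read 85.3 and 69 in the knockdown, against 47.8 and 52 in the control. Probe set 1429051_s_at read 49.4 and 44 in the knockdown, against 25.9 and 25.8 in the control. In all 3 the knockdown arrays lie above the control arrays, with changes of 0.53 ± 0.15, 0.49 ± 0.17 and 0.58 ± 0.20 (adjusted p = 0.0137, 0.0330 and 0.0324, limma).

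The remaining Sox11 probe sets changed less or were dim. Probe set 1453002_at read 52.7 and 48.5 in the knockdown, against 43.8 and 39.5 in the control, above it without overlap but not past the test (0.21 ± 0.18, adjusted p = 0.400, limma). Probe set 1429372_at read 33.9 and 17.7 in the knockdown, against 19.9 and 25.2 in the control (0.09 ± 0.25, adjusted p = 0.806, limma). The one below the filter, 1431225_at, read 12.6 and 16.3 in the knockdown, against 16.8 and 13 in the control. In 2 cases, probe sets annotated to the same accession differed in call: 1453125_at rose and 1429372_at did not pass, and 1429051_s_at rose and 1453002_at did not pass.

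The Sox11 values stayed positive at the 3 called probe sets under every alternative that measured them, but the calls are near the threshold. With spike-in scaling they were 0.39, 0.35 and 0.44 (adjusted p = 0.0740, 0.132 and 0.118, limma), and without the filter the adjusted p was 0.0664, 0.136 and 0.152. Leaving out 1 array ended the call at 1429051_s_at each time (0.0763 without control replicate 2 to 0.165 without knockdown replicate 1). At 1436790_a_at it ended without knockdown replicate 1 (0.0955), knockdown replicate 2 (0.0521) or control replicate 1 (0.0602). At 1453125_at it ended without knockdown replicate 1 (0.243), control replicate 1 (0.107) or control replicate 2 (0.0535). Relative to the median of all tested probe sets the 3 changes were 0.64, 0.61 and 0.69.

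The sequence before the start of Sox11 is shown as that of the one gene with probe sets that rose, with the same motifs in capitals. It is chr12:27342719-27342968 on the minus strand, GRCm38.p6, from RefSeq, and holds 2 E-boxes and 1 GATA site.
Sox11: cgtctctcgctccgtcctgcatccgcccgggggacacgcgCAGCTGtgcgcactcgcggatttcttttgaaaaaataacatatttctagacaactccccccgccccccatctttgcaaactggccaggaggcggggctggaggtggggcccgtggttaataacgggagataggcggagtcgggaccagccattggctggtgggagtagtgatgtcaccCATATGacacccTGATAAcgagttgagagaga

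**Figure D2:**
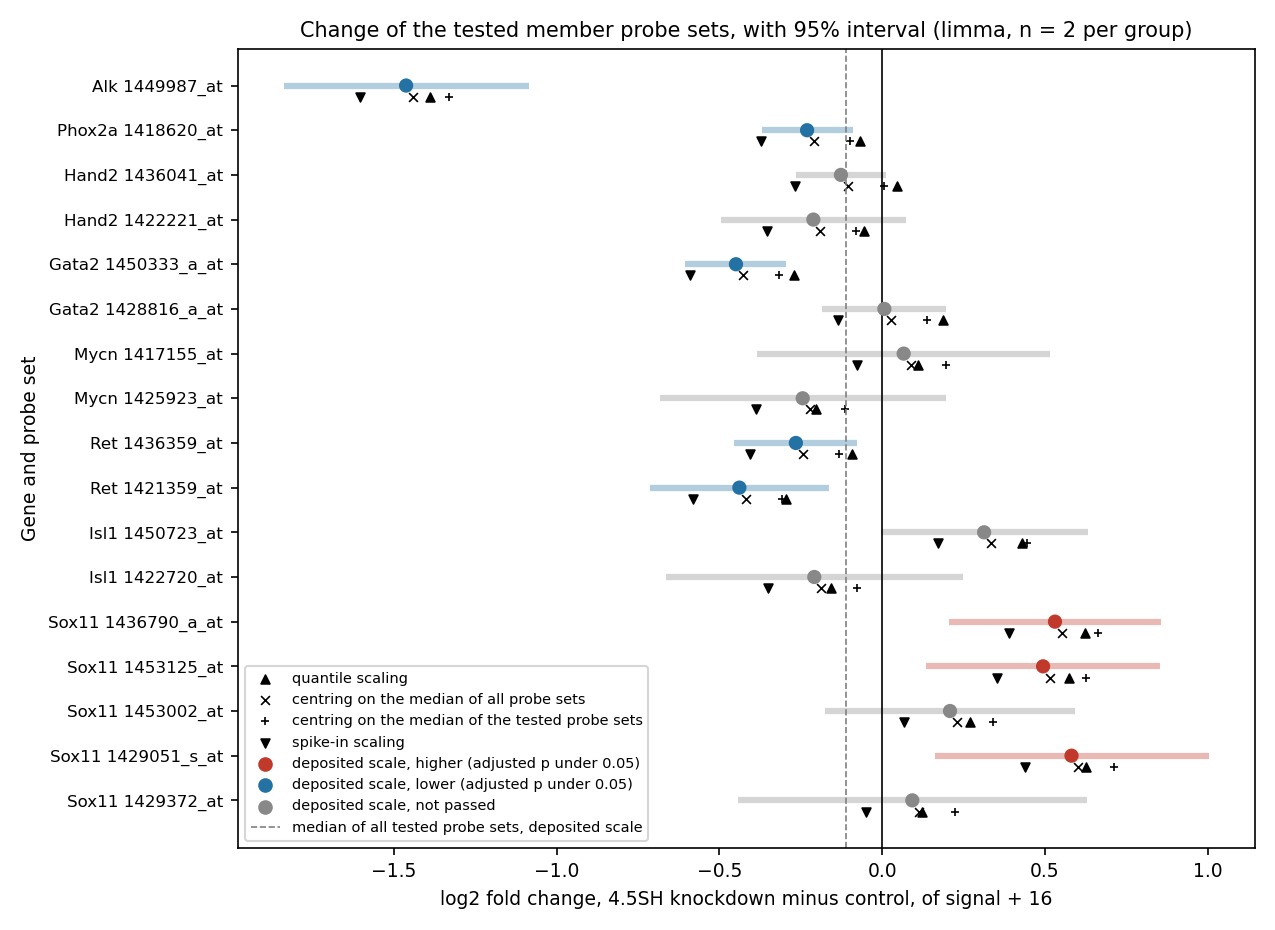
Log2 fold change (knockdown minus control, signal plus 16) of the 17 tested probe sets with 95% intervals of the limma fit, coloured by call, the same value under 4 other scalings as black symbols, and a dashed line at the median of all tested probe sets, -0.11. Alk stays at -1.33 or lower on each scale, while Hand2 1436041_at, Gata2 1428816_a_at, Mycn 1417155_at and Sox11 1429372_at cross 0 between scales.

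Genes around the receptors were read from a list of ligands, co-receptors, related receptors and adaptors of Ret and Alk, each by its brightest probe set. Of 26 named genes 16 were tested, and 1 rose, 5 fell and 10 did not pass, where 8.95% of all 11814 tested genes rose and 32.9% fell, 41.8% in all. Their median change was -0.27, beside -0.17 for all tested genes. Mdk, which encodes the growth factor midkine, read 266 and 271 in the knockdown, against 566 and 535 in the control and fell by 0.99 on the log2 scale (SE 0.09, adjusted p = 2.88e-06, limma). Pspn, which encodes the GDNF family ligand persephin, read 26.5 and 27.8 in the knockdown, against 71.9 and 54.9 in the control and fell by 0.87. Both passed on all 4 other scales and without any 1 array. The neurotrophin receptor gene Ngfr was lower at its brightest probe set (-0.41 ± 0.08), at 1 of 3 tested. Ltk, the receptor closest to Alk, named after its value was seen, read 66.8 and 65.2 in the knockdown, against 136 and 125 in the control (-0.83 ± 0.14). Ptn, which encodes the midkine relative pleiotrophin, rose by 0.17 ± 0.06 (adjusted p = 0.0364, limma) at 1 of 3 tested probe sets, but not with spike-in scaling (0.03). That call also ended without knockdown replicate 1 (adjusted p = 0.169, limma), knockdown replicate 2 (0.0996) or control replicate 2 (0.219, with a change of 0.11). The GDNF gene itself and the co-receptor gene Gfra1 were below the filter.

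Of 17 other transcription factors of the noradrenergic network, 15 had a probe set and 10 were tested, with a median of -0.07. At the brightest probe set of each, 3 rose, 2 fell and 5 did not pass, where 8.95% of all tested genes rose and 32.9% fell. The split depended on the scale: 3 rose and 0 fell with quantile scaling (limma), 3 rose and 1 fell with arrays centred on the tested probe sets, while spike-in scaling gave 2 higher and 5 lower. At an unadjusted p under 0.05, as deposited, 3 were higher and 4 lower. Sox4, the SoxC relative of Sox11, read 2675 and 2935 in the knockdown, against 2065 and 1796 in the control and rose by 0.54 ± 0.07 (adjusted p = 6.17e-05, limma), at 4 of 6 tested probe sets. The Krüppel-like factor Klf7 rose by 0.49 ± 0.11, at 3 of 4 tested probe sets. Both passed on all 4 other scales. The T-box factor Tbx2 (-0.47 ± 0.14) and the homeodomain factor Meis1 (-0.44 ± 0.12, at 1 of 2 tested probe sets) fell. With quantile scaling neither passed (-0.34 and -0.29), and Tbx2 also not after centring on the tested probe sets. Neither call held without knockdown replicate 1 (adjusted p = 0.134 for Tbx2 and 0.114 for Meis1, limma) or without control replicate 1 (0.0730 and 0.0947).

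The 7 tested genes of catecholamine synthesis and transport had a median of -0.07. By the brightest probe set, 1 rose, 1 fell and 5 did not pass, where 8.95% of all tested genes rose and 32.9% fell. Pnmt, the enzyme that makes adrenaline from noradrenaline, read 38.9 and 41.6 in the knockdown, against 2.3 and 25.1 in the control (1.04 ± 0.32, adjusted p = 0.0201, limma). The control arrays were unlike each other, and the value depended on them. It was 0.45 without control replicate 1 (adjusted p = 0.191, limma) and 1.62 without control replicate 2 (0.000659). It also did not pass without knockdown replicate 1 (0.0786) or knockdown replicate 2 (0.0999), so that it passed in 1 of the 4 fits that leave out an array. Gch1, which makes the cofactor of tyrosine hydroxylase, was at -0.18 ± 0.06, close to the median of all genes, and passed on 1 of the 4 other scales and in none of the fits without 1 array (adjusted p from 0.0570 without knockdown replicate 1 to 0.255 without knockdown replicate 2, limma). Gch1 was lower at 1 of its 2 tested probe sets. Dbh, the enzyme that makes noradrenaline, read 24 and 13.6 in the knockdown, against 36.5 and 10.5 in the control.

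The 16 tested partners, antagonists and regulators of Mycn had a median of -0.12. Each read by its brightest probe set, 1 rose, 4 fell and 11 did not pass, where 8.95% of all tested genes rose and 32.9% fell. With quantile scaling 2 rose and 2 fell, with arrays centred on the tested probe sets 1 rose and 2 fell, and with spike-in scaling 0 rose and 6 fell (limma; as deposited, 1 was higher and 5 lower at an unadjusted p under 0.05). Mlx, the partner of the Mondo factors, read 313 and 299 in the knockdown, against 590 and 596 in the control and fell by 0.92 on the log2 scale (SE 0.09, adjusted p = 4.24e-06, limma), at both of its tested probe sets. Mxd1, an antagonist that shares the partner Max, fell by 0.59 at 1 of 2. Huwe1 did not pass at its brightest probe set (0.01) but was lower at 3 of 4 tested. Gsk3b was lower at 1 of 4 and Usp7 at 1 of 6, and Mga was higher at 1 of 2. Myc itself read 648 and 692 in the knockdown, against 843 and 790 in the control (-0.28 ± 0.08), a call that ended with quantile scaling (-0.09), without knockdown replicate 1 (adjusted p = 0.0980, limma) and without control replicate 1 (0.0918). Mga, a Max-binding repressor, rose by 0.36 ± 0.13, but not with spike-in scaling (0.22), nor without knockdown replicate 1 (adjusted p = 0.178, limma), knockdown replicate 2 (0.120) or control replicate 2 (0.202).

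The list of cofactors of the Gata factors, Isl1 and Hand2 held 12 tested genes, with a median of -0.20. Read by the brightest probe set, none rose, 5 fell and 7 did not pass, where 8.95% of all tested genes rose and 32.9% fell. At an unadjusted p under 0.05 (limma) 2 were higher and 5 lower. With quantile scaling 3 rose and 2 fell, and with arrays centred on the tested probe sets 2 rose and 4 fell. Spike-in scaling gave 0 higher and 6 lower, and centring on all probe sets gave 0 higher and 5 lower. Tcf4 did not pass at its brightest probe set (0.29, adjusted p = 0.085, limma) but was higher at 4 of its 5 tested probe sets. Lhx3, the LIM homeodomain partner of Isl1 in motor neurons, read 147 and 134 in the knockdown, against 348 and 370 in the control and fell by 1.26 on the log2 scale (SE 0.11, adjusted p = 1.89e-06, limma), at both tested probe sets. Ssbp2, which stabilises the LIM domain cofactor, fell by 0.42 at 1 of 3 tested, and Tal1 and Lmo4, partners in Gata complexes, by 0.47 and 0.40, the last pair not with quantile scaling. The Tal1 call also ended without knockdown replicate 1 (adjusted p = 0.110, limma) or control replicate 1 (0.129), and the Lmo4 call without knockdown replicate 2 (0.0557). Of the 13 genes that mark a mesenchymal neuroblastoma state, 6 were tested, by the brightest probe set. Of these, 2 rose and none fell (limma), where 8.95% of all tested genes rose and 32.9% fell. At an unadjusted p under 0.05 (limma), 2 of the 6 were higher and 0 lower. With quantile scaling 3 rose and 0 fell, and with spike-in scaling 1 rose and 1 fell. The 2 that rose as deposited were Vim, the vimentin gene, with 4912 and 4958 in the knockdown, against 3708 and 3720 in the control (0.41 ± 0.05), at all 3 tested probe sets, and the Yap relative Wwtr1 (0.32 ± 0.10), not with spike-in scaling (0.18) and not without any 1 array (adjusted p from 0.0706 without control replicate 1 to 0.131 without knockdown replicate 1, limma). Wwtr1 was higher at 1 of its 3 tested probe sets. The genes Prrx1, Twist1, Snai2 and Yap1 were below the filter.

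**Figure D3:**
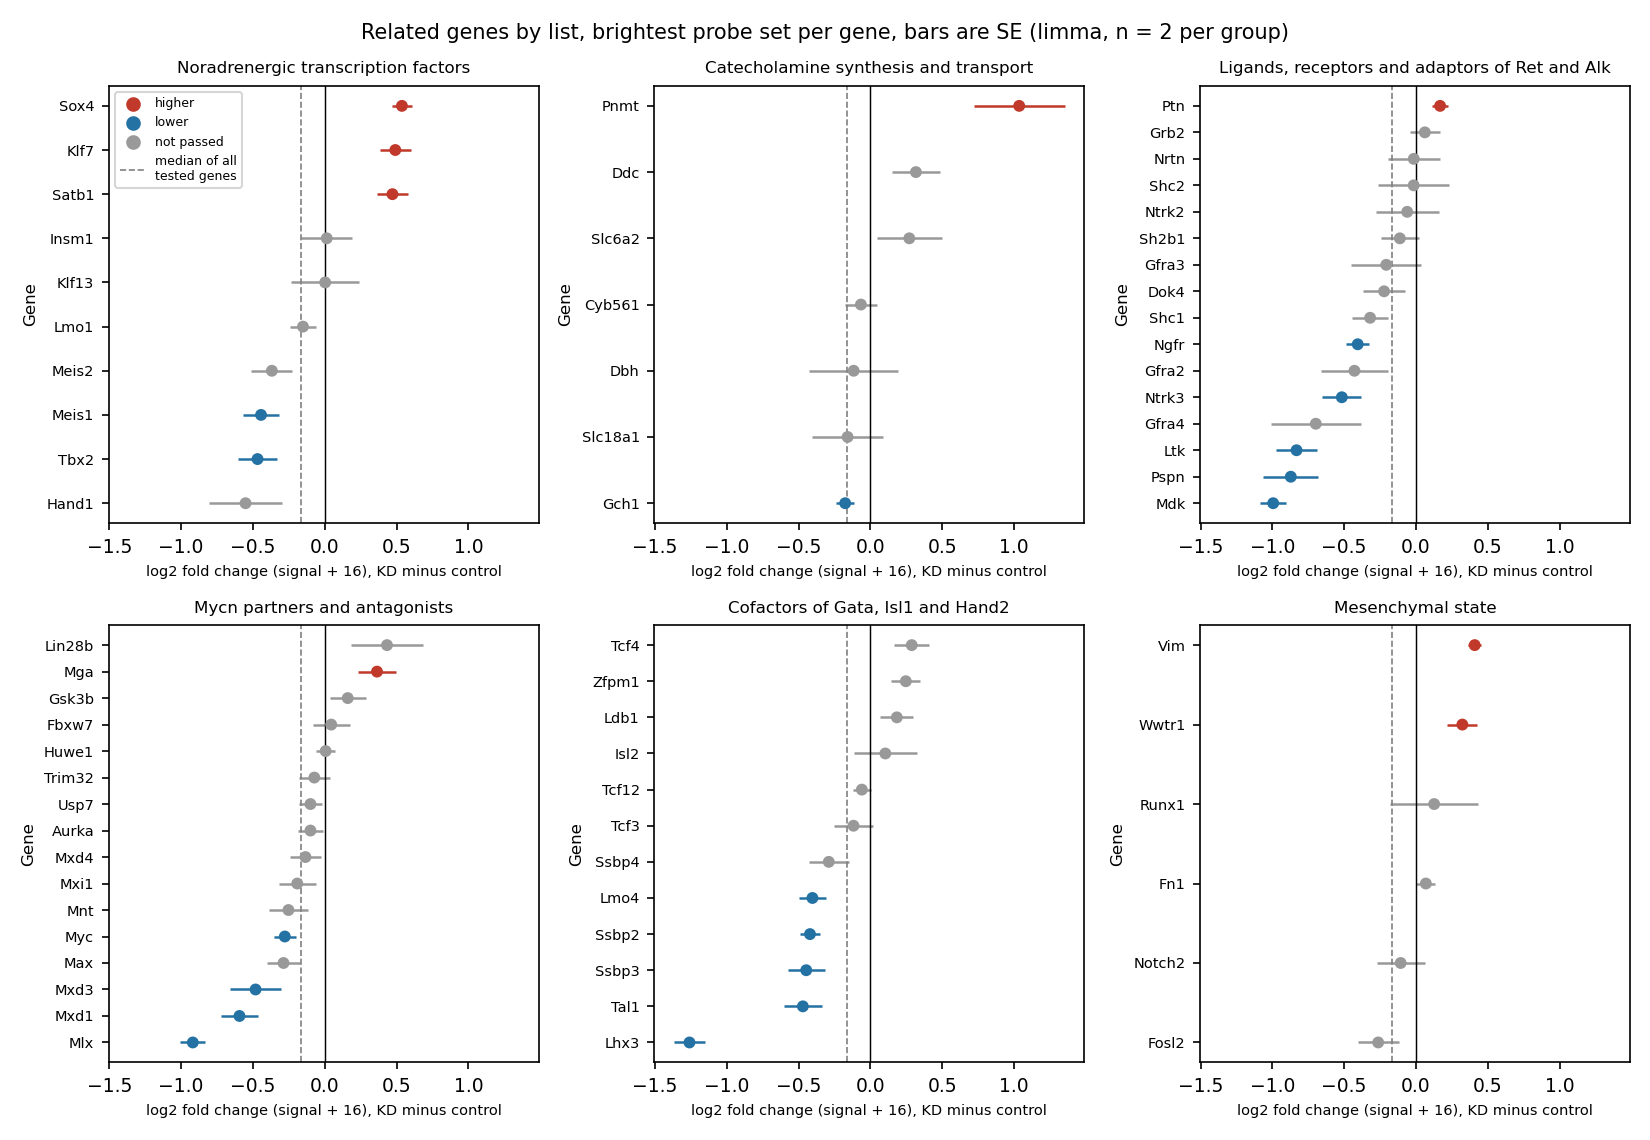
Log2 fold change (knockdown minus control, signal plus 16) with its standard error for each tested gene of 6 lists around the 9 genes, by the brightest probe set, coloured by call, with a dashed line at the median of all tested genes, -0.17. Sox4 and Klf7 lead the noradrenergic factors, Mdk, Pspn and Ltk are the lowest of the receptor list, and Lhx3 is the lowest of all 6 lists.

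The probe sets whose profile over the 4 arrays was most like that of Alk, by the root mean square difference of log2 values centred on their own mean among 20237 candidates, were those of Rexo5 (0.0376), Sh3pxd2b (0.0454) and Mboat1 (0.0627). For the Sox11 probe set with the largest rise, 1429051_s_at, they were those of Vamp7 (0.0124), Purb (0.0150) and Synj2bp (0.0162). Over 4 arrays such likeness describes little beyond the size of the change and which array of each group was higher.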

How the data were processed

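The authors deposited 1 intensity per probe set and array, which the submitters' processing notes name as MAS5 signals. For software version, scaling target and filters the labels are silent (not given in the sources used here), and detection calls were not used here. No further scaling was applied to the deposited intensities. Of 45101 probe sets, 64 array controls were left out. Of the rest, 34945 had 1 gene symbol, 932 several and 9160 none, and 34741 were matched by Entrez identifier to RefSeq. Loci and promoter windows are RefSeq's (GRCm38.p6). Ret had no promoter window in that table.

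log2(signal + 16) was fitted with limma 3.58.1 in R 4.3.3 (lmFit, eBayes with an intensity trend, 13.6 total degrees of freedom, two-sided, Benjamini-Hochberg). The fit was tried on simulated data drawn from its own variance model, which cannot show whether the calls on these arrays hold. The log2 values were computed here from the deposited signals. Spike-in scaling centred each array on its 9 hybridization spike-in probe sets. Figures used matplotlib 3.10.9 in Python 3.11.15. The number of arrays limits the precision.

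Members and lists were chosen with earlier results of these data known. Every member probe set is named. Of each related list the 2 highest and 2 lowest called genes are named, and of 2 member probe sets the 3 most like them. The 18 alternatives cover pseudocount, scaling, filter, trend, probe set choice, threshold, replicate block and single arrays.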

Additional observations from a re-analysis of the deposited data

Results flagged for a closer look

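A pair of probe sets that the filter kept out of the test had both knockdown arrays above both control arrays. For Gata3 1448886_at the mean signal was 21.6 ± 1.27 on knockdown arrays and 10.3 ± 0.28 on control arrays (SD, n = 2). For Mycn 1425922_a_at it was 10.45 ± 4.46 on knockdown arrays and 3.3 ± 0.42 on control arrays (SD, n = 2), while the 2 brighter Mycn probe sets changed by 0.07 and -0.24 on the log2 scale. Neither passed in the fit without the filter (adjusted p = 0.240 and 0.237, limma). Of all tested probe sets, 22.6% had the knockdown arrays wholly above the control arrays. That share covers only probe sets above the filter, so it gives no background for these. At Hand2 1443854_at and Sox11 1431225_at, also below the filter, the groups overlapped.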

How the results depend on the processing

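Each of the 9 genes' probe sets was refitted under the alternatives that measured it. Of 256 such values 219 kept the outcome of their test, 35 lost the call, 2 gained one and none of the called values changed sign. Alk and Gata2 1450333_a_at kept their call under every alternative that measured them. The 5 lower probe sets became 2 with quantile scaling, 2 with arrays centred on the tested probe sets, 2 without the intensity trend and 2 at a threshold of 0.01. The 3 higher ones became 0 with spike-in scaling, without the filter and at a threshold of 0.01. The counts of 0 on the brightest 25% of probe sets, which held none of the Sox11 probe sets that rose, and of 1 with 1 probe set per gene, which kept one of them, follow from what was measured and bear on no call. The counts over all probe sets, 2199 higher and 5811 lower, were 3826 and 3758 with quantile scaling, 3773 and 3985 with arrays centred on the tested probe sets, 1042 and 8008 with spike-in scaling, 1354 and 3778 without the intensity trend, 1241 higher without the filter, 1162 higher with 1 probe set per gene and 1283 higher at a threshold of 0.01. Leaving out 1 array gave 2 to 3 lower and 0 to 1 higher probe sets of the 9 genes, and 4297 to 5265 lower and 1200 to 1976 higher over all probe sets. The lone array of a group is then assumed to vary like the others. The replicate numbers are shared between the groups, but deviations of same-numbered arrays correlated at only 0.00715, so they are not taken as pairs. With the replicate block 5 probe sets of the 9 genes were lower and 3 higher, as without it, and 6123 lower and 2399 higher over all. Signal near the filter limits what can be said of Mycn, Gata3 and the dimmer probe sets of Isl1 and Sox11. It also limits the size of the Alk change, with 32.8 and 25 in the knockdown at its only probe set. The log2 value of Alk ran from -1.87 with a pseudocount of 1 to -0.89 with 64. The cause of the lost calls was not tested.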
